A study of Homo sapiens with 4 samples.

Results

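The foregut and Barrett lineage transcription factors are 9 genes, *CDX1*, *CDX2*, *HNF4A*, *GATA6*, *FOXA2*, *FOXA3*, *SOX2*, *SOX9* and *TP63*. They were chosen by name for their roles in intestinal, gastric and squamous identity, and each matched 1 Ensembl gene among the 63677 genes of the count tables. The rule that picks them uses no measured value. They are described here by their level in esophageal adenocarcinoma (EAC) cells and by their difference between a parental line and its metastatic subline.

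RNAseq libraries of both lines were compared, 2 per line. FLO-1 parental is an established human EAC cell line, and FLO-1LM is a subline of it that was isolated from a macroscopic liver metastasis after serial passage of FLO-1 tumors through immunodeficient NSG mice. Both lines were untreated, and RNA was taken from cultures at 80% confluency whose medium had been changed 24 hours earlier. FLO-1LM is therefore 1 derivation from 1 parental line, and it is not stated that the paired libraries of each line are independent cultures, so the p-values below measure the spread between these libraries, which may be technical.

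In the embryo the esophagus and stomach arise from the anterior foregut, where SOX2 marks the foregut and TP63 maintains the basal layer of squamous epithelium. CDX1 and CDX2 are homeobox factors that specify the intestine, and HNF4A is a nuclear receptor that, with GATA6 and the forkhead pioneer factors FOXA2 and FOXA3, drives columnar endodermal programs. SOX9 is a progenitor factor of columnar glands. In Barrett metaplasia, the precursor lesion of EAC, squamous epithelium is replaced by columnar epithelium with intestinal features, and gain of CDX2 and SOX9 with loss of SOX2 and TP63 is the textbook description of that switch.

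Total counts ran from 19060310 to 25920336 per library, and 3 counts, the limit that a count of 0 allows, corresponded to 0.116 to 0.156 CPM (counts relative to library size, scaled with edgeR's TMM factors). Mitochondrially encoded genes took 9.57% to 9.96% of counts in FLO-1LM and 7.93% to 8.31% in parental libraries. The FLO-1LM libraries, although deeper, held a count for fewer genes than the parental libraries, 21152 to 21304 against 22908 to 23104, and genes under 10 counts took 0.0676% to 0.0784% of counts in FLO-1LM and 0.0966% to 0.112% in parental libraries. That difference moves with the few parental counts of *HNF4A*, *TP63* and *FOXA2* described below, and its part in them was not tested.

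The sequences just upstream of the annotated starts are shown for a factor that was counted in every library, *CDX2*, and for those that were close to 0, *HNF4A*, which has 2 starts in the RefSeq windows used, and *TP63*. They are RefSeq sequences (GRCh38.p14), 5′ to 3′ on the strand of the gene, and each matched 1 place in GRCh37, whose coordinates are given. Capitals mark CpG dinucleotides. The only *TP63* window on hand lies at the 5′ end of the annotated gene, and any other start of *TP63* was not examined.
CDX2, chr13:28543453-28543702, minus strand: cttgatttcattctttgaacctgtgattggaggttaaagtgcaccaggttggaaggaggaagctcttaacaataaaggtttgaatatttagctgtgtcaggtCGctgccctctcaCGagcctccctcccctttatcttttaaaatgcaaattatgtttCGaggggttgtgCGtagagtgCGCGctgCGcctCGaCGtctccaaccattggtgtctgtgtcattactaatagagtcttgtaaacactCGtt
HNF4A upstream promoter, chr20:42984089-42984338, plus strand: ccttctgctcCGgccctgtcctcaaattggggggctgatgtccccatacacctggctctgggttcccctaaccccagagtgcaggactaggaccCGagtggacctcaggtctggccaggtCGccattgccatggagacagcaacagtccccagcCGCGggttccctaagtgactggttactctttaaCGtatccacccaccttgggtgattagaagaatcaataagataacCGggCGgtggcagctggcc
HNF4A downstream promoter, chr20:43029629-43029878, plus strand: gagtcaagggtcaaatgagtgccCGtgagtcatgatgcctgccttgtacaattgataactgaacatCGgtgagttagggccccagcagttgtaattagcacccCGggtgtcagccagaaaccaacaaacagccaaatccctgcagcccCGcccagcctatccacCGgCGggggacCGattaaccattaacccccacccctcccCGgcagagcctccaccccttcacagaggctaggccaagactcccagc
TP63, chr3:189348928-189349177, plus strand: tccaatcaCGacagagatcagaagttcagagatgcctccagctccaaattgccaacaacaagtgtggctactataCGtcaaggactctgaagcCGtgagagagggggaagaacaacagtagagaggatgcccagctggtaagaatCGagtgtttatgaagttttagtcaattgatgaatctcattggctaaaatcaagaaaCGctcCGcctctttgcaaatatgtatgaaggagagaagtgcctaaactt
The 250 bases before the *CDX2* start held 10 CpG dinucleotides, each *HNF4A* stretch held 8, and the *TP63* stretch held 6. With the 50 bases after the start included, windows were on hand for 6 of the 9 genes, and the observed over expected CpG ratio was 0.849 for *FOXA3*, 0.844 for *CDX2*, 0.824 for *GATA6*, 0.667 for *SOX2*, 0.491 for *TP63*, and 0.409 and 0.364 for *HNF4A*. The median over 35114 promoter windows of the same length was 0.579, so the windows of *HNF4A* and *TP63* lay below it and the other 4 genes above. The GC share ranged from 43.7% for *TP63* to 76.3% for *FOXA3*, against a median of 58.7%. As a description of letters and not of binding, the CDX motif TTTATG was found in the *TP63* window and in 10.6% of all windows, the forkhead motif TGTTTAC and the SOX motif AACAAT in the *CDX2* window and in 3.42% and 10.1% of all windows, and the TATA box TATAAA in the *TP63* and *FOXA3* windows and in 11.5% of all. In *TP63*, TATAAA was on neither strand of the 250 bases printed, so that match lay in or reached into the 50 bases after the start. In *FOXA3* it lay before the start. The GATA motif GATAAG was in none of these windows and in 6.36% of all. Both strands were searched, and TTTATG differs from the reverse complement of TATAAA only in its last letter.

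*SOX9* was the most abundant of the 9 factors. It lies on chromosome 17 (70117161 to 70122557, plus strand, GRCh37, ENSG00000125398), and its counts were 1326 and 1163 in the FLO-1LM libraries and 1283 and 987 in the parental libraries. These correspond to 59.5 and 45.1 CPM in FLO-1LM and 58.1 and 51.4 CPM in parental cells, so both parental values lay between the FLO-1LM values. Per kilobase of exon, the scale on which levels of different genes can be compared, the level of *SOX9* was 13.3 ± 2.58 CPM per kb (SD, n = 2) in FLO-1LM and 13.9 ± 1.21 (SD, n = 2) in parental cells. Averaged over the 4 libraries, this placed it above 83.3% of 19488 protein-coding genes. Its antisense neighbour *SOX9-AS1*, which overlaps no exon of *SOX9*, had 17, 8, 4 and 8 counts in the same order of libraries.

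*CDX2*, the intestinal homeobox factor, was the only other member with more than 100 counts in a library. It lies on chromosome 13 (28535055 to 28543452, minus strand, ENSG00000165556) and had 169 and 157 counts in FLO-1LM and 159 and 182 in parental libraries. The corresponding values were 7.58 and 6.09 CPM in FLO-1LM and 7.21 and 9.48 CPM in parental cells, and the ranges of the lines overlapped. Its level was 1.94 ± 0.299 CPM per kb (SD, n = 2) in FLO-1LM and 2.37 ± 0.458 (SD, n = 2) in parental cells, above 53.3% of protein-coding genes and near the median protein-coding gene at 1.58 CPM per kb. *CDX2* was therefore at a middling level in both lines among all protein-coding genes. Of these, 23.2% had no count in any library, so its place among counted genes was lower.

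*CDX1*, its paralog, had no count in any library. The gene lies on chromosome 5 (149546341 to 149564121, plus strand, ENSG00000113722). A count of 0 allows up to 3 counts per library, which for a gene of its exon length is 0.0707 CPM per kb in FLO-1LM and 0.0823 in parental cells. Set against that limit, the mean level of *CDX2* per kilobase was 27.5-fold higher in FLO-1LM and 28.8-fold higher in parental cells. These values leave out the counting error of *CDX2* and are not strict minima. *CDX1* was 1 of 4530 protein-coding genes (23.2%) without a count in these libraries. The same was true of *CDX4*, the remaining gene of the family.

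*HNF4A*, which in intestinal epithelium acts alongside CDX2, was at or near 0. It lies on chromosome 20 (42984339 to 43061485, plus strand, ENSG00000101076) and had 0 and 0 counts in FLO-1LM and 0 and 2 in parental libraries. All 4 values were below the limit of 3 counts, so no fold change is given and a difference between the lines was not detectable at this depth. The antisense gene *HNF4A-AS1* had no count, and the paralog *HNF4G* had 2 and 4 counts in FLO-1LM and 0 and 1 in parental libraries, so neither HNF4 nuclear receptor gene exceeded 4 counts.

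*GATA6*, a zinc-finger factor of the stomach and intestine, was counted in every library but at a low level. It lies on chromosome 18 (19749550 to 19782491, plus strand, ENSG00000141448) and had 23 and 10 counts in FLO-1LM and 15 and 24 in parental libraries, or 1.03, 0.388, 0.680 and 1.25 CPM. The lowest and the second highest value were both from FLO-1LM, so the lines overlapped. Per kilobase of exon its level was 0.187 ± 0.120 CPM per kb (SD, n = 2) in FLO-1LM and 0.254 ± 0.106 (SD, n = 2) in parental cells, above 38.8% of protein-coding genes. Antisense *GATA6-AS1*, which shares 94 exon bases with *GATA6*, had 0, 0, 0 and 3 counts, and how the counting treated strand is not given in the sources used here.

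The GATA factors that were abundant in these cells were others. *GATA4*, which is active in gastric and cardiac development, had 826 and 952 counts in FLO-1LM and 802 and 798 in parental libraries, and *GATA5* had 220 and 328 against 228 and 231. Per kilobase, the level of *GATA4* was 44.6-fold that of *GATA6* in FLO-1LM and 34.5-fold in parental cells, and the level of *GATA5* was 23.1-fold and 16.8-fold that of *GATA6*. *GATA3*, a squamous and lymphoid factor, had 26 and 12 counts in FLO-1LM and 36 and 29 in parental libraries.

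The forkhead factors were near the detection limit. *FOXA2* (chromosome 20, 22561636 to 22566093, minus strand, ENSG00000125798), which with FOXA1 opens chromatin for endodermal genes, had 0 and 1 counts in FLO-1LM and 2 and 7 in parental libraries. Both parental values were above both FLO-1LM values, but only parental replicate 2 exceeded 3 counts. Summed by line and scaled, the ratio of FLO-1LM to parental was 0.0954 with a 95% exact interval of 0.00218 to 0.688, which rests on 1 count against 9 and covers counting error only. With no low-count filter edgeR gave *FOXA2* an adjusted p of 0.791, and it was not called. *FOXA3* (chromosome 19, 46367247 to 46377055, plus strand, ENSG00000170608) had 8 and 13 counts in FLO-1LM and 5 and 4 in parental libraries, a ratio of 2.0 (0.879 to 4.97). The lines did not overlap for *FOXA3*, with 0.359 and 0.505 CPM in FLO-1LM against 0.227 and 0.208 CPM in parental cells, but the interval of the ratio includes equal levels and the adjusted p with no filter was 0.858. The noncoding neighbour of *FOXA2*, *LINC00261*, had no count. *FOXA1*, the third gene of this group, had 20 and 43 counts in FLO-1LM and 32 and 33 in parental libraries, 0.291 and 0.359 CPM per kb on average.

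*SOX2*, the foregut and squamous progenitor factor, was low and uneven between the libraries of each line. It lies on chromosome 3 (181429713 to 181432224, plus strand, ENSG00000181449) and had 2 and 14 counts in FLO-1LM and 0 and 6 in parental libraries, or 0.0897, 0.543, 0 and 0.313 CPM. The lines overlapped, and in each of them replicate 2 was the higher. The ratio of FLO-1LM to parental was 2.29 (0.851 to 7.14) from 16 against 6 counts, and the adjusted p with no filter was 0.858. Its level per kilobase, 0.126 ± 0.128 CPM per kb (SD, n = 2) in FLO-1LM and 0.0622 ± 0.0880 (SD, n = 2) in parental cells, rested on these few counts, with parental replicate 1 at 0. The host transcript *SOX2-OT*, which shares no exon with *SOX2*, had 2, 0, 0 and 4 counts.

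*TP63*, the basal squamous factor, was at or near 0 in these adenocarcinoma cells. It lies on chromosome 3 (189349178 to 189615065, plus strand, ENSG00000073282) and had 0 and 0 counts in FLO-1LM and 0 and 2 in parental libraries. No library exceeded 3 counts, so a difference was not detectable. Its paralog *TP73* had 2 and 1 counts in FLO-1LM and 1 and 7 in parental libraries. The 2 counts of *TP63*, the 2 of *HNF4A*, and 7 of the 10 counts of *FOXA2* came from parental replicate 2, the shallowest library.

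**Figure D1:**
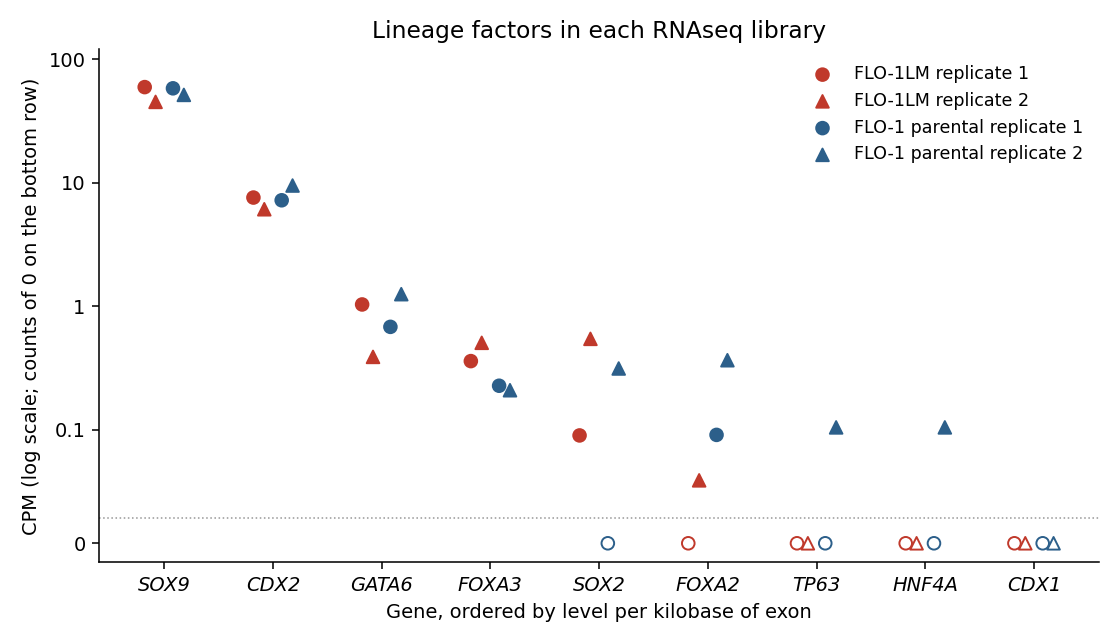
Level of each lineage factor in each of the 4 RNAseq libraries, in CPM on a log axis, with counts of 0 drawn as open symbols on the bottom row (red, FLO-1LM; blue, FLO-1 parental; circle, replicate 1; triangle, replicate 2). *SOX9* lies between 45.1 and 59.5 CPM and *CDX2* between 6.09 and 9.48 CPM in all libraries, and *CDX1* has no count in any.

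Ordered by mean level per kilobase of exon, the factors ran *SOX9*, *CDX2*, *GATA6*, *FOXA3*, *SOX2*, *FOXA2*, *TP63*, *HNF4A* and *CDX1*. *SOX9* was 6.31-fold above *CDX2* and *CDX2* was 9.79-fold above *GATA6*, and for both of these steps the ranges over the 4 libraries did not overlap. Every later neighbour in the order overlapped, so *GATA6* (0.102 to 0.329 CPM per kb), *FOXA3* (0.0980 to 0.237) and *SOX2* (0 to 0.216) are not distinguished by level, and *FOXA3* was above *GATA6* in FLO-1LM, at 0.203 against 0.187. The places of *TP63* and *HNF4A* in the order rest on 2 counts each, and they changed places when the longest transcript was taken as the length. Leaving out FLO-1LM replicate 2 exchanged *FOXA2* and *SOX2*, and leaving out parental replicate 2 left *TP63*, *HNF4A* and *CDX1* all at 0, without an order among them.

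**Figure D2:**
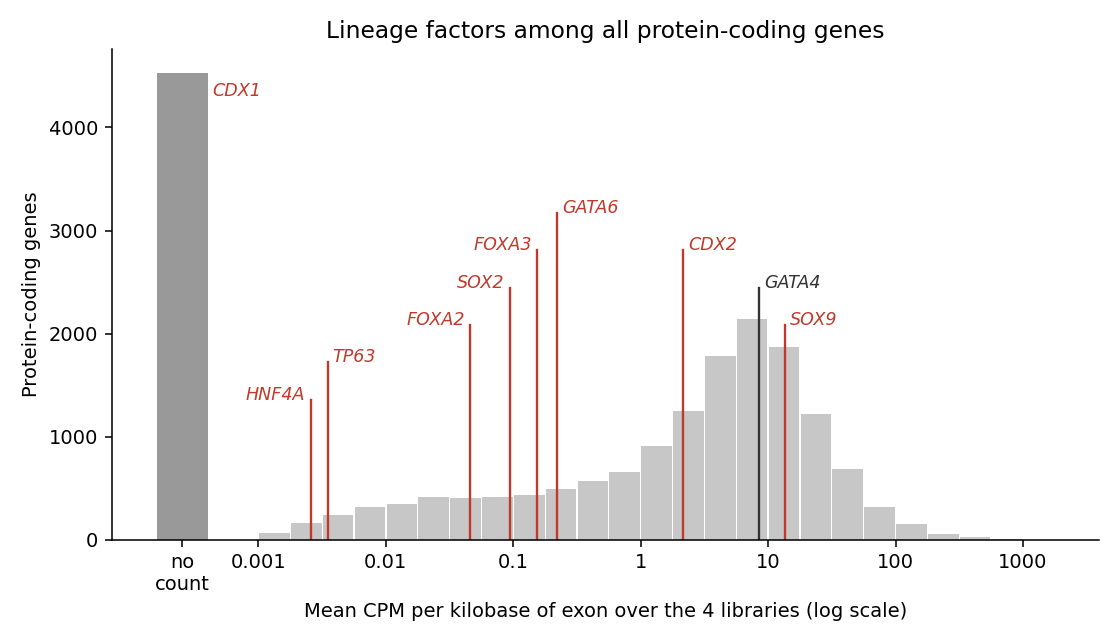
Number of protein-coding genes (y axis) by mean CPM per kb of exon over the 4 libraries (x axis, log scale), with genes without a count as the dark bar. Vertical lines mark the lineage factors (red) and *GATA4* (black): *SOX9* and *GATA4* lie in the bulk of expressed genes, *CDX2* at its lower edge, and the other factors in the low tail or, for *CDX1*, among the 4530 genes without a count.

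Only *SOX9*, *CDX2* and *GATA6* passed edgeR's filter on low counts and were tested between the lines, and 0 of these 3 was called at an adjusted p below 0.05, where 2.23% of all 17143 tested genes were called (1.83% lower and 0.402% higher in FLO-1LM). At an unadjusted p below 0.05 the count was also 0 of 3, with edgeR, DESeq2 and limma voom alike, against 12.4% of all tested genes with edgeR. For *CDX2*, the log2 fold change of FLO-1LM against parental was −0.29 (SE 0.218, 95% interval −0.74 to 0.17, adjusted p = 0.672 with edgeR's quasi-likelihood test). For *GATA6* it was −0.45 (SE 0.663, −1.84 to 0.94, adjusted p = 0.868), and for *SOX9* it was −0.07 (SE 0.117, −0.32 to 0.18, adjusted p = 0.885). On the linear scale the intervals span 0.597 to 1.13 for *CDX2*, 0.28 to 1.92 for *GATA6* and 0.803 to 1.13 for *SOX9*. A reduction of *SOX9* in FLO-1LM beyond 0.803-fold thus lies outside its interval, whereas for *GATA6* a fall to 0.28 of the parental level remains inside it. The direction for *CDX2* was lower in FLO-1LM in each of 12 alternative analyses. The direction for *GATA6* turned to 0.11 without FLO-1LM replicate 2 and to 0.0524 without parental replicate 2, and that for *SOX9* turned to 0.117 without FLO-1LM replicate 2 and to 0.0226 without parental replicate 1. In bulk RNA, fewer cells that express a gene and less of its RNA per cell cannot be told apart.

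The genes whose CPM over the 4 libraries followed *CDX2* most closely, among 11866 protein-coding genes compared, were *SEMA7A*, *VMAC* and *RAB37*, with Euclidean distances of 0.0588, 0.0646 and 0.0682 between centred log2 CPM. *SEMA7A*, which encodes a membrane-anchored semaphorin, had 2.60 and 2.10 CPM in FLO-1LM and 2.58 and 3.39 CPM in parental libraries. Within a distance of 0.1 lay 6 genes, and with 4 libraries a likeness of this kind is a description only.

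Paralogs of the factors, the other genes of their families, were counted in the same libraries. Of 27 paralogs, 11 had no count in any library (among them *CDX4*, *GATA1*, *SOX1* and *SOX3*), 12 were tested and 0 was called, with 2 at an unadjusted p below 0.05 in edgeR and in limma voom and 1 in DESeq2. With edgeR, 2.23% of all tested genes were called and 12.4% had an unadjusted p below 0.05, against 16.7% of these paralogs. The shares over all tested genes also stand beside the counts of the lists below. Their median log2 fold change was −0.0413, beside 0.0016 over all tested genes. Among the highest per kilobase were *GATA4* (8.33 CPM per kb in FLO-1LM and 8.77 in parental cells) and *SOX4* (7.65 and 6.81). *GATA4* had a log2 fold change of −0.07 (SE 0.107, adjusted p = 0.865). On the mean of the 4 libraries *SOX4* was the SOX gene nearest to *SOX9*. The level of *SOX9* per kilobase was 1.74-fold that of *SOX4* in FLO-1LM and 2.05-fold in parental cells. In parental cells *SOX12* was nearer than *SOX4*, at 7.09 CPM per kb, whereas in FLO-1LM it was at 5.80.

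**Figure D3:**
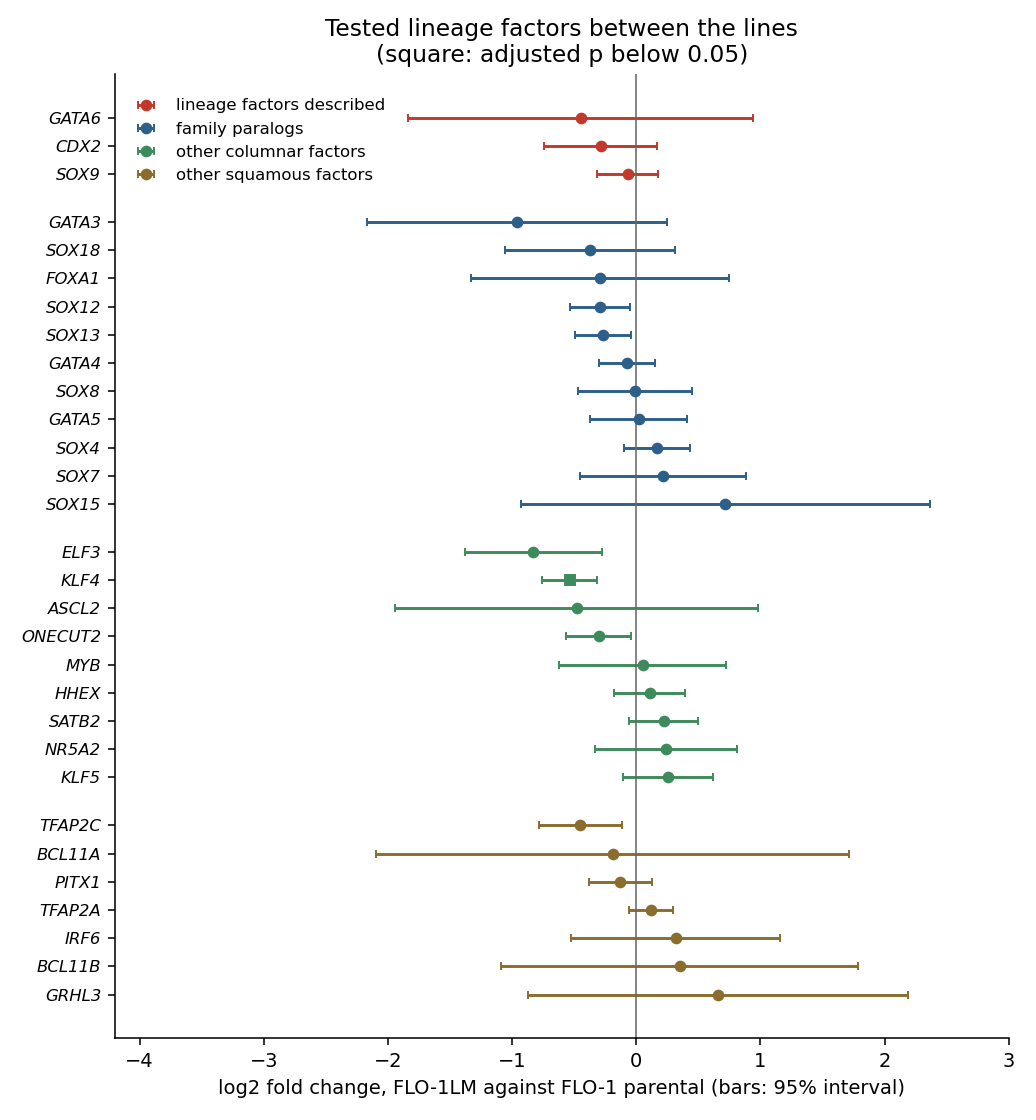
Log2 fold change of FLO-1LM against FLO-1 parental (x axis) for tested genes among the lineage factors, their paralogs and other columnar and squamous factors, with bars for the 95% interval, which is not adjusted for the number of genes. The 3 lineage factors have intervals that include 0, and the only square, an adjusted p below 0.05, is *KLF4*.

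Among 19 other columnar factors, 9 were tested, 1 was lower in FLO-1LM and 0 was higher, beside 1.83% and 0.402% of all tested genes. The lower gene was *KLF4*, a Krüppel-like factor of differentiated gut epithelium, with 830 and 830 counts in FLO-1LM and 1133 and 943 in parental libraries (37.2 and 32.2 against 51.3 and 49.1 CPM). Its log2 fold change was −0.54 (SE 0.105, adjusted p = 0.00848), and the call was lost when parental replicate 1 or 2 was left out, with an adjusted p of up to 0.190. *HHEX*, a foregut endoderm homeobox gene, was counted at 551 and 547 in FLO-1LM and 439 and 435 in parental libraries, and *KLF5*, a factor of proliferating gut epithelium, at 365 and 328 against 287 and 217, neither of them called. Among these factors, 4 (*ISX*, *ONECUT1*, *ATOH1* and *SPDEF*) had no count in any library. ISX is an intestinal homeobox factor that acts downstream of CDX2, and ATOH1 and SPDEF direct the goblet and secretory lineage.

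Besides *TP63*, 11 other squamous factors were examined, of which 7 were tested and 0 was called, with 1 at an unadjusted p below 0.05 by edgeR, DESeq2 and limma voom. By edgeR that was 14.3% of those tested, beside 12.4% of all tested genes. *TFAP2A*, an AP-2 factor of ectoderm and squamous epithelium, had 1991 and 2140 counts in FLO-1LM and 1729 and 1541 in parental libraries, *PITX1*, a homeobox gene, had 921 and 837 against 838 and 819, and *TFAP2C* had 257 and 295 against 333 and 314. *ZNF750*, a TP63 target in differentiating squamous cells, and *FOXE1* had no count. A low *TP63* count therefore stood beside abundant *TFAP2A*, at 10.5 CPM per kb in FLO-1LM and 9.65 in parental cells.

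Genes that mark the lineages these factors specify were read from the same libraries. Of 24 intestinal markers, 14 had no count in any library, including *MUC13*, *TFF3*, *FABP1* and *FABP2*, and *CDH17*, an intestinal cadherin and CDX2 target, had 2, 0, 0 and 0 counts, although *CDX2* itself was counted in every library. Of these markers, 3 were tested and 0 was called, with 2 at an unadjusted p below 0.05 by edgeR, DESeq2 and limma voom, beside 12.4% of all tested genes by edgeR. The exception by level was *ANPEP*, a brush-border aminopeptidase that other cell types also express, with 8674 and 9131 counts in FLO-1LM and 9508 and 8639 in parental libraries, or 73.7 and 87.3 CPM per kb, a log2 fold change of −0.25 (SE 0.073, adjusted p = 0.105). It was called in 4 of the 12 alternatives (library totals only, no low-count filter, limma voom without TMM factors, and without FLO-1LM replicate 1), and its adjusted p ranged from 0.00551 to 0.731 over the 12. *LGALS4*, a gut galectin, had 54 and 54 counts in FLO-1LM and 50 and 57 in parental libraries. *VIL1*, the brush-border protein villin, had 6 and 3 counts in FLO-1LM and 37 and 16 in parental libraries, without overlap, and a log2 fold change of −2.70 (SE 0.760, adjusted p = 0.0789), which fell below 0.05 with no low-count filter and without FLO-1LM replicate 1 and in no other of the 12 alternatives.

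Most gastric and squamous markers were also low, with under 10 counts in every library for 13 of 15 and 16 of 23. Of the gastric markers, 5 had no count (among them *TFF1*, *GKN2*, *ANXA10* and *VSIG1*), 2 were tested and 0 was called, also at an unadjusted p below 0.05 and with DESeq2 and limma voom. *ATP4A*, the gastric proton pump, had 62 and 40 counts in FLO-1LM and 62 and 63 in parental libraries, *PSCA* had 13 and 13 against 23 and 9, and *AQP5* had 2 and 8 against 4 and 4. Of the squamous markers, 7 had no count (among them *DSG1*, *DSG3*, *DSC3* and *IVL*), 5 were tested and 0 was called, with 1 at an unadjusted p below 0.05 by each of the 3 tools, beside 12.4% of all tested genes by edgeR. *KRT15*, a basal keratin, had 131 and 114 counts in FLO-1LM and 183 and 166 in parental libraries (log2 fold change −0.72, SE 0.223, adjusted p = 0.126). *ITGB4*, the hemidesmosome integrin, had 302 and 357 against 275 and 245, *S100A2* had 131 and 144 against 100 and 105, and *KRT5*, the keratin most used to mark TP63-positive basal cells, had 1, 2, 4 and 0 counts.

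The study describes FLO-1 as a line of EAC, a columnar epithelial cancer, and proposes that it has undergone epithelial-mesenchymal transition. It also reports that *CDH1* had the most significant fall of any gene in FLO-1LM, with less E-cadherin protein. In these counts the defining columnar markers were mixed. *KRT18* and *KRT8*, the simple-epithelium keratins, were counted at 4068 to 6495 and 6310 to 9568 per library, whereas *EPCAM*, the pan-epithelial adhesion molecule, had 3 and 12 counts in FLO-1LM and 4 and 3 in parental libraries. Of the 11 columnar epithelial markers, 9 were tested, and 5 of them (*CDH1*, *KRT19*, *KRT8*, *KRT18* and *CLDN4*) were called lower in FLO-1LM, beside 1.83% of all tested genes. At an unadjusted p below 0.05 the count was 6 of 9 by edgeR and by limma voom and 5 by DESeq2. Higher in FLO-1LM but not called were *KRT7* and *CLDN7*. *KRT7* had 142 and 156 counts against 68 and 94 (log2 fold change 0.64, SE 0.263, adjusted p = 0.3035), and *CLDN7* had 32 and 21 against 16 and 17. *CDH1*, which encodes E-cadherin, fell by 2.21 on the log2 scale (SE 0.109, adjusted p = 1.12e-09), with 365 and 512 counts in FLO-1LM and 1894 and 1583 in parental libraries. *CLDN3*, a tight-junction claudin, was not called, with 306 and 313 counts against 265 and 296. The call of *CLDN4* (log2 fold change −1.07, adjusted p = 0.00174) was lost without parental replicate 1, at an adjusted p of 0.0560. *KRT8* and *KRT18* have many processed pseudogenes that can share their reads, so their values are uncertain. The summed level of the 11 markers was 518 to 532 CPM in FLO-1LM and 887 to 902 CPM in parental libraries, most of it from *KRT8* and *KRT18* in every library.

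**Figure D4:**
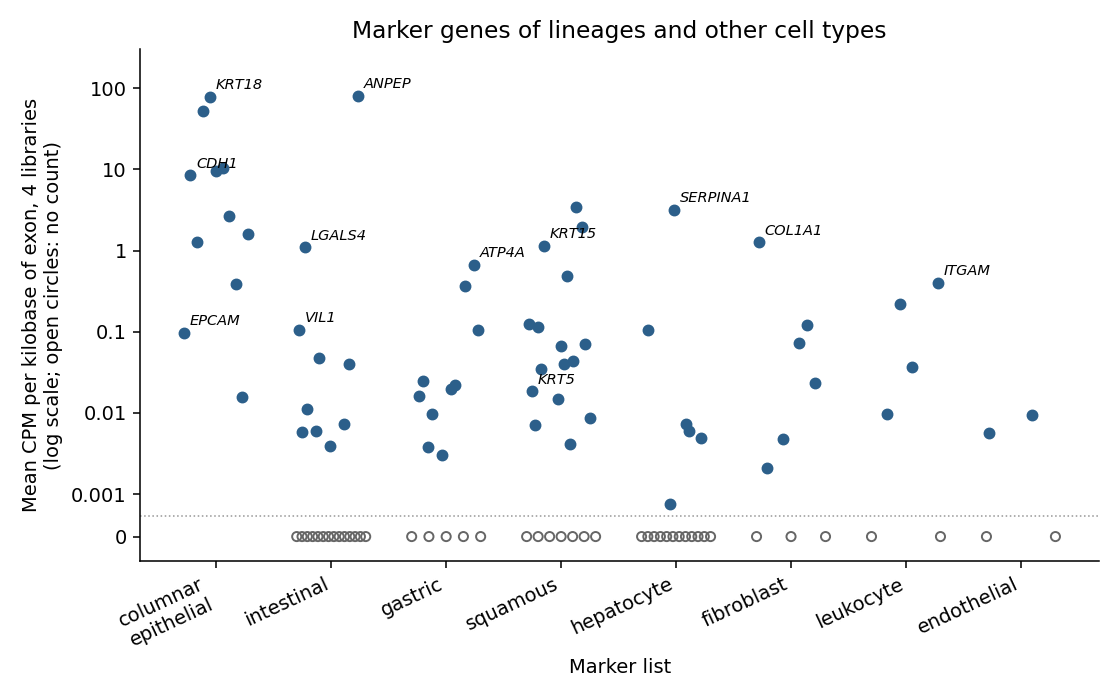
Mean CPM per kb of exon over the 4 libraries (y axis, log scale) of each gene in 8 lists of lineage and cell type markers (x axis), with genes without a count as open circles on the bottom row. Columnar keratins and *ANPEP* reach the highest levels, and 14 of 24 intestinal and 12 of 18 hepatocyte markers have no count.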

How the data were processed

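Total RNA of 2 FLO-1LM and 2 FLO-1 parental samples was sequenced by the authors from directional libraries, adapters were trimmed, and reads were mapped to GRCh37 and counted per gene. The submitters' processing notes name bcl2fastq 2.17 and Trimmomatic 0.30. The counting program, its strand setting and how it handled multiply mapped reads are not given in the sources used here. The authors deposited raw read counts, 1 value per gene and library. The libraries of a line differed by more than sampling noise (chi-square over degrees of freedom 7.85 for FLO-1LM and 3.70 for parental) and were counted separately. Pairs of libraries from different lines gave 8.74 to 10.8 on the same measure.

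From these counts, edgeR 4.0.16 (R 4.3.3) was used with filterByExpr at its defaults, TMM scaling, estimateDisp, glmQLFit and glmQLFTest on all 4 libraries, with Benjamini-Hochberg adjustment over 17143 tested genes and a threshold of 0.05. This test was the main one because the values are counts, and limma 3.58.1 with voom, which the study used, was an alternative beside DESeq2 1.42.0. The standard error was the absolute log2 fold change over the square root of F. Symbols, positions and exon lengths (union of exons) came from GENCODE lifted to GRCh37, a later annotation than the one counted on. Intervals of count ratios are exact binomial (scipy 1.17.1), at 95%, for counting error only. With 2 libraries per line no permutation test of 1 gene can reach significance. Scripts were tested on simulated data. Alternatives were other scalings, filters and tools, and each library left out in turn.

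Named genes were each of the 9 factors, and from each other list the called genes, the 3 highest per kilobase, and up to 4 of those without a count, with overlapping noncoding genes and, for the tested factor with the largest ratio of fold change to error, the 3 genes of mean CPM at least 1 of nearest pattern. Named beside these for their relation to a factor or a list, after their values were seen, were *HNF4G*, *GATA3*, *GATA5*, *FOXA1*, *SOX12*, *TP73*, *CDH17*, *KRT5*, *EPCAM*, *KRT7*, *CLDN7*, *COL2A1*, *ACAN* and *HAPLN1*. Values of 2 further genes that this rule names are not reported here. The factors and lists were chosen with earlier results of these data known.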

Additional observations from a re-analysis of the deposited data

How the results depend on the processing

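No lineage factor was called under any of the 12 alternatives: RLE factors, library totals only, mitochondrial genes left out, no low-count filter, at least 10 counts in every library, DESeq2, limma voom with and without TMM factors, and each of the 4 libraries left out. The log2 fold change of *CDX2* stayed negative in all 12 (−0.474 to −0.0778). Without 1 library, *GATA6* ran from −1.29 to 0.11, with 0.11 without FLO-1LM replicate 2 and 0.0524 without parental replicate 2, and *SOX9* from −0.282 to 0.117, with 0.117 without FLO-1LM replicate 2 and 0.0226 without parental replicate 1. Genes lower in FLO-1LM numbered 203 when at least 10 counts in every library were required, against 313, and 96 to 696 without 1 library. Genes higher numbered 147 with no filter, against 69, and 20 to 356 without 1 library. These counts rose without either FLO-1LM library and fell without either parental library, where the remaining spread comes from the one complete pair and the lone sample is assumed to vary like it. Called genes of the other lists numbered 4 to 10 without 1 library, against 6. In the order of levels, 2 factors moved with the longest transcript as length, 0 with library totals, and 0 to 2 without 1 library. At this depth, 6 of the 9 factors had at most 30 counts over the 4 libraries, which limits any comparison of them between the lines. No paired analysis was possible because the replicate numbers only name the samples.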

Other observations

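Markers of liver, the site from which FLO-1LM was isolated, and of other cell types were sparse in both lines. Of 18 hepatocyte markers, 12 had no count in any library, *ALB*, *APOA2*, *APOB* and *APOC3* among them. *SERPINA1*, which many epithelial cells also express, had 329 and 339 counts in FLO-1LM and 398 and 313 in parental libraries, and it made up most of the summed hepatocyte level of 13.5 to 14.8 CPM in FLO-1LM and 16.6 to 18.1 CPM in parental libraries. *APOA1* had 1, 7, 1 and 2 counts and *FGG* had 0, 0, 0 and 2. The leukocyte markers *PTPRC* and *CSF1R*, the endothelial markers *KDR* and *EMCN* and the fibroblast markers *COL3A1*, *DCN* and *THY1* had no count. Among those counted, *COL1A1* had 284 and 272 counts in FLO-1LM and 275 and 186 in parental libraries, *PDGFRA* had 29 and 35 against 22 and 18, and *LUM* had 4 and 3 against 6 and 4. *ITGAM* had 29 and 64 against 58 and 51, *CD68* had 5 and 1 against 0 and 1, *VWF* had 0 and 1 against 1 and 6, and *CDH5* had 3 and 0 against 0 and 0. The summed leukocyte level was 2.15 to 3.42 CPM in FLO-1LM and 3.13 CPM in both parental libraries, the summed fibroblast level 12.5 to 14.4 CPM in FLO-1LM and no higher than 14 CPM in parental libraries, and the summed endothelial level 0.0388 to 0.135 and 0.0453 to 0.313 CPM. In these lists 1 hepatocyte, 2 fibroblast, 2 leukocyte and 0 endothelial genes passed the low-count filter, and of those tested 0 was called, also at an unadjusted p below 0.05 and with DESeq2 and limma voom. Reads from mouse cells were not examined.

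*SOX9* is best known as the master factor of cartilage. Some of the genes it drives there were counted in these epithelial cancer cells, and others were at or near 0. *COL11A2*, a cartilage collagen, had 285 and 290 counts in FLO-1LM and 216 and 238 in parental libraries, *COL9A3* had 95 and 111 against 71 and 72, and *MATN3*, which encodes a cartilage matrix protein, had 75 and 79 against 66 and 69. Of 8 cartilage genes, 4 were tested and 0 was called, also at an unadjusted p below 0.05 and with DESeq2 and limma voom. Their median log2 fold change was 0.0415. *COL2A1*, another cartilage collagen, had only 1 and 5 counts in FLO-1LM and 5 and 7 in parental libraries and was not tested. *ACAN* had 27 and 34 counts against 40 and 23, and *HAPLN1* had 0, 0, 0 and 1. *COL9A1* and *CNMD* had no count.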
